A study of Mus musculus with 2 samples.

Results

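The 7 genes described here encode enzymes that build gangliosides. They were found by gene symbol, each in 1 row of the 33696 features listed identically for both libraries: Ugcg, St3gal5, B4galnt1, St3gal2, St8sia1, St8sia3 and St8sia5. The fluconazole library came from Shank3-/- mice that drank fluconazole, an antifungal azole, for 2 weeks, and the vehicle library from Shank3-/- mice given vehicle in the same way. Both libraries thus carry the Shank3 deletion, and no wild-type library was analysed here. The protein made from Shank3 is a scaffold at excitatory synapses. Strain, age, sex, the deleted part of the gene and the number of mice in each library are not stated in the labels. The labels call the tissue brain, whereas the series' design names the prefrontal cortex, and both cells and nuclei are mentioned, so each droplet is called a barcode. The assay was 10x Genomics 3′ sequencing, which counts transcripts as unique molecular identifiers (UMIs). Lipid rafts, in which gangliosides sit, are named in the study's title.

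Gangliosides are glycosphingolipids that carry sialic acid. They are abundant in the outer leaflet of neuronal membranes and gather with cholesterol in lipid rafts. Ugcg (glucosylceramide synthase) puts glucose on ceramide, which opens the route, and a galactose then makes lactosylceramide. St3gal5 (GM3 synthase) adds the first sialic acid, and St8sia1 (GD3 synthase) the next, which opens the b series. B4galnt1 (GM2/GD2 synthase) extends both series with N-acetylgalactosamine, after which St3gal2 caps terminal galactose to give GD1a and GT1b, main gangliosides of adult brain. St8sia5 attaches further sialic acids in alpha-2,8 linkage and can make GT3 and GQ1b, and St8sia3 is an alpha-2,8-sialyltransferase that acts on glycolipids and glycoproteins. No lipid was measured, so everything below concerns transcripts.

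In GENCODE vM21 on the GRCm38 (mm10) build, Ugcg (ENSMUSG00000028381) lies at chr4:59189257-59222833 on the + strand and St3gal5 (ENSMUSG00000056091) at chr6:72097592-72154571 on the + strand. St8sia1 (ENSMUSG00000030283) is on the same chromosome at chr6:142821545-142964452, on the - strand. B4galnt1 (ENSMUSG00000006731) lies at chr10:127165225-127172330 and St3gal2 (ENSMUSG00000031749) at chr8:110919922-110972480, both on the + strand. St8sia3 (ENSMUSG00000056812), at chr18:64254359-64279611, and St8sia5 (ENSMUSG00000025425), at chr18:77185839-77258771, share a chromosome and the + strand. Counting was done with a more recent annotation, so the ends given are those of vM21. Most of these genes overlap others. Whether the overlaps affect the counts was not tested, and the strand setting is not stated. St8sia3 overlaps St8sia3os and B4galnt1 overlaps Slc26a10, each on the opposite strand. St3gal5, St3gal2, St8sia1 and St8sia5 overlap predicted or uncharacterised gene models, and Ugcg overlaps none. Of these models, Gm29438 lies on the same strand as St3gal5 and Gm26132 on that of St3gal2. Gm29438 is not among the counted features.

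In the fluconazole library 78380009 UMIs were spread over 12637 barcodes, and in the vehicle library 76891692 UMIs over 14924 barcodes. After filtering, 10610 fluconazole barcodes with a median of 5258 UMIs and 12892 vehicle barcodes with a median of 4327 UMIs were kept. The libraries shared 45 barcode sequences, 31 of them among kept barcodes. Clusters were named by class from marker genes, without the ganglioside genes taking part in the clustering, and a class name means barcodes like that class. Classes needed 50 barcodes per library to be compared, which 13 had, from 57 fluconazole and 152 vehicle lymphocytes up to 2789 fluconazole and 2902 vehicle endothelial cells. Striatal spiny neurons, 209 in the fluconazole and 349 in the vehicle library, and neuroblasts, 246 and 523, are among them although the design text names prefrontal cortex. Levels are given as CPM, counts per 1000000 UMIs of the class and library, and are compared between classes for 1 gene at a time. Each treatment has 1 library, so no test between treatments was possible and the 95% intervals cover counting error only.

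All 7 transcripts were counted in both libraries, from 612 fluconazole and 558 vehicle UMIs for B4galnt1 to 5762 and 5812 for St3gal5 over the kept barcodes. Each had its own order of classes. Glutamatergic neurons, 1583 in the fluconazole and 1896 in the vehicle library, held 70.8% and 61.0% of all St8sia5 UMIs, and 28.2% and 22.6% of Ugcg UMIs. Microglia, 2419 and 3161 barcodes, held 37.3% and 34.8% of St3gal5 UMIs and 35.6% and 36.6% of B4galnt1 UMIs.

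Ugcg, the entry enzyme, was highest in lymphocytes at 211 CPM in the fluconazole and 190 CPM in the vehicle library. The lymphocyte cluster led by T and NK cell genes (40 fluconazole and 95 vehicle barcodes) had 251 and 245 CPM. The one led by B cell genes (17 and 57 barcodes) had 97.0 and 64.6 CPM. The latter values rest on few Ugcg UMIs, since that cluster had 72137 and 170386 UMIs in all. Border macrophages followed at 50.3 and 52.6 CPM, and this first step was the one place in the order where the intervals of neighbouring classes were apart in both libraries. Glutamatergic neurons had 27.6 and 25.5 CPM, inside the range of the glial and vascular classes, which ran from 15.2 and 14.1 CPM in astrocytes to 35.8 and 37.9 CPM in microglia. Summed markers of microglia stood in lymphocytes at 14.0% and 9.10% of their microglial level.

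St3gal5, which makes GM3, had 2 high classes that overlapped each other. Microglia had 143 CPM in the fluconazole and 133 CPM in the vehicle library, and glutamatergic neurons 126 and 137 CPM, so the order of these 2 differed between the libraries. All other classes lay below them, beginning with fibroblasts at 78.6 and 85.6 CPM, and that step was larger than the intervals. Striatal spiny neurons had 73.0 and 78.3 CPM, GABAergic neurons 46.7 and 61.5 CPM and endothelial cells 24.6 and 23.6 CPM. Lymphocytes, first for Ugcg, were low for St3gal5 at 21.5 and 16.1 CPM. Mural cells were lowest, with 23 UMIs in all.

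B4galnt1, whose product is the branch shared by most brain gangliosides, was also highest in lymphocytes, at 115 CPM in the fluconazole library (32 UMIs) and 91.4 CPM in the vehicle library (51 UMIs). By the mean of both libraries microglia came next, at 14.6 and 13.4 CPM, with intervals apart from those of lymphocytes in both libraries. Striatal spiny neurons had 14.6 and 6.42 CPM and border macrophages 3.87 and 18.9 CPM, so that the class after lymphocytes differed between the libraries. Glutamatergic neurons had 10.4 and 8.98 CPM and GABAergic neurons 8.08 and 5.94 CPM. Endothelial cells, at 0.495 and 1.26 CPM, and astrocytes, at 2.17 and 0.975 CPM, were among the lowest classes. The opposite-strand gene Slc26a10 had another order: 24.7 and 29.0 CPM in endothelial cells, 20.3 and 16.1 CPM in striatal spiny neurons and 11.6 and 10.2 CPM in glutamatergic neurons.

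St3gal2, the sialyltransferase that completes GD1a and GT1b, had the smallest ratio of the 7 between its highest and lowest class, 5.89 by the mean of both libraries. Fibroblasts had 77.0 CPM in the fluconazole and 70.6 CPM in the vehicle library, mural cells 48.0 and 51.8 CPM, microglia 44.7 and 44.7 CPM and endothelial cells 39.8 and 45.2 CPM. The neuron classes lay below them, with 35.8 and 26.2 CPM in GABAergic and 26.3 and 24.0 CPM in glutamatergic neurons. None of the 12 steps between neighbouring classes exceeded the intervals in both libraries.

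St8sia1, which opens the b series, was highest in GABAergic neurons at 65.0 CPM in the fluconazole and 63.6 CPM in the vehicle library, and in oligodendrocyte precursors at 58.0 and 49.6 CPM. Lymphocytes had 32.3 and 39.4 CPM, striatal spiny neurons 30.2 and 32.1 CPM and glutamatergic neurons 25.1 and 26.7 CPM. Mature oligodendrocytes were near the bottom, with 2 fluconazole and 3 vehicle UMIs, or 0.447 and 0.652 CPM, and vehicle border macrophages had no UMI, where 3 counts would be 4.05 CPM. Precursors and mature cells of the same lineage thus stood near opposite ends of the order. Within 2 vascular classes the clusters differed: 1 fibroblast cluster had 49.1 and 30.2 CPM and the other 3.43 and 0 CPM, and 1 mural cluster had 12.8 and 20.4 CPM while the other had no UMI. The 12 steps between neighbouring classes were all within the intervals of at least 1 library.

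St8sia3 was highest in striatal spiny neurons, at 57.8 CPM in the fluconazole and 57.8 CPM in the vehicle library. By the mean of both libraries neuroblasts came next, at 20.8 and 21.4 CPM, a step larger than the intervals. Oligodendrocyte precursors (24.7 and 15.2 CPM, 35 UMIs in all), glutamatergic neurons (18.6 and 20.1 CPM) and GABAergic neurons (17.2 and 17.5 CPM) followed with overlapping values. A further step separated GABAergic neurons from oligodendrocytes at 3.58 and 5.22 CPM. The opposite-strand gene St8sia3os was likewise highest in spiny neurons, at 90.1 and 68.2 CPM, with 25.2 and 23.1 CPM in glutamatergic neurons. The 2 genes parted in other classes: oligodendrocytes had 17.4 and 15.0 CPM of St8sia3os, and neuroblasts 4.90 and 3.77 CPM. Since the strand setting is not stated, how far reads of one entered the count of the other was not tested.

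St8sia5 was highest in glutamatergic and GABAergic neurons. Glutamatergic neurons had 76.9 CPM (95% interval 73.0 to 80.9) in the fluconazole and 44.1 CPM (41.0 to 47.3) in the vehicle library, and GABAergic neurons 74.4 and 53.5 CPM. Striatal spiny neurons stood apart from glutamatergic neurons at 15.1 and 15.3 CPM. Astrocytes had 9.97 and 13.7 CPM, mature oligodendrocytes 4.69 and 5.00 CPM, and microglia, endothelial and mural cells under 2 CPM in each library. No UMI was counted in lymphocytes, where 3 counts would be 10.8 CPM in the fluconazole and 5.38 CPM in the vehicle library. The astrocyte level was 12.97% of the glutamatergic one in the fluconazole and 31.0% in the vehicle library. The 6 summed markers of neurons stood in astrocytes at 2.11% and 3.19% of their glutamatergic level, and their part in the result was not tested. The 2 oligodendrocyte clusters differed, with 14.8 and 11.4 CPM in 1 and 0.627 and 1.93 CPM in the other.

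**Figure D1:**
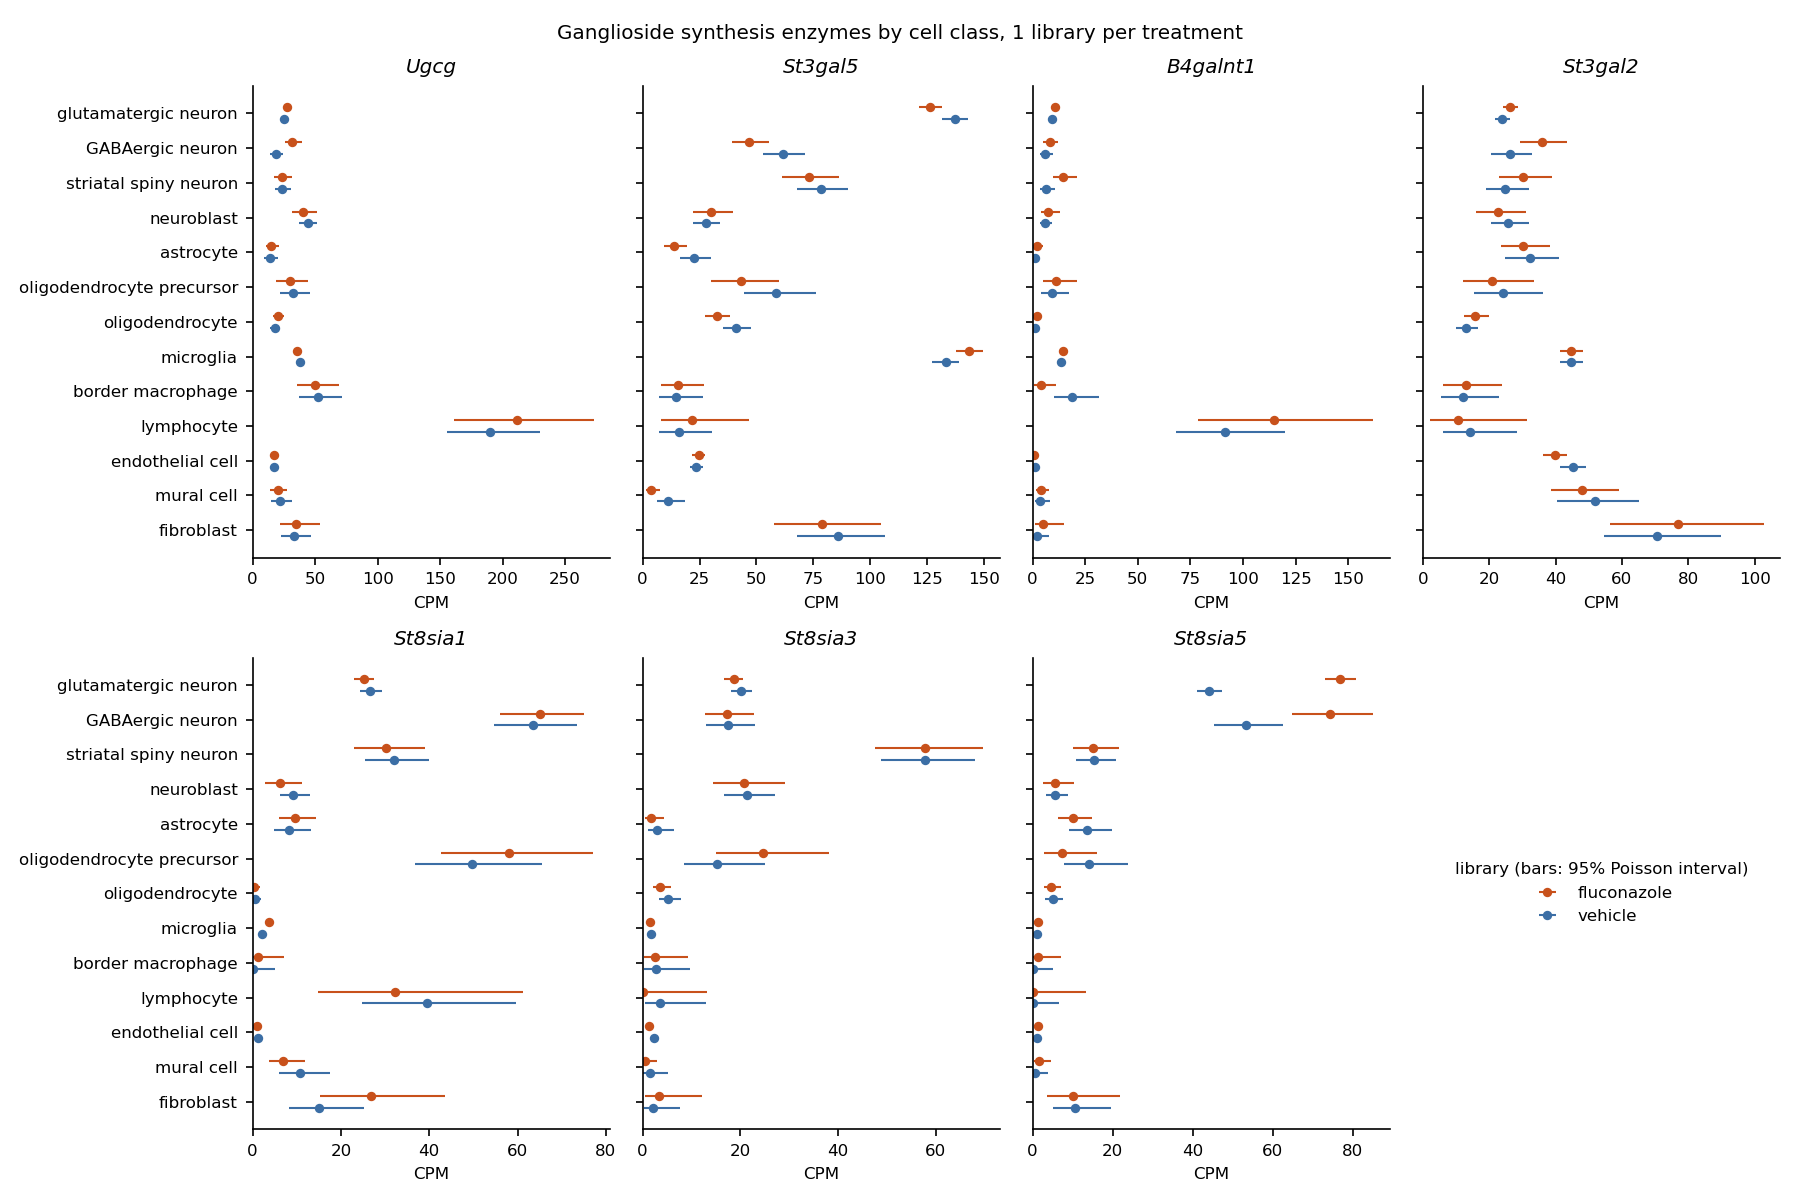
Level of each enzyme (horizontal axis, CPM) in the 13 cell classes (rows), with a point and a 95% Poisson interval for the fluconazole library above that for the vehicle library. Ugcg and B4galnt1 are highest in lymphocytes, St3gal5 in microglia and glutamatergic neurons, St8sia1 in GABAergic neurons and oligodendrocyte precursors, St8sia3 in striatal spiny neurons and St8sia5 in glutamatergic and GABAergic neurons, where the fluconazole point lies to the right of the vehicle point.

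The neuron classes were split further by layer and subtype markers. St3gal5 was highest in layer 6 corticothalamic neurons at 153 CPM in the fluconazole and 186 CPM in the vehicle library. Layer 2/3 neurons had 123 and 145 CPM, and the step between the 2 subclasses exceeded the intervals in both libraries. Layer 4/5 Rorb neurons had 105 and 109 CPM, and interneurons of caudal and medial eminence type were lowest, at 43.2 and 50.8 CPM and at 36.4 and 39.3 CPM. Among glutamatergic subclasses St8sia5 had its highest level in the same layer 6 neurons, at 107 and 62.7 CPM, against 59.0 and 34.3 CPM in layer 2/3 and 55.1 and 37.6 CPM in layer 4/5.

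St8sia1 differed between the interneuron types, and St8sia3 marked the spiny neurons among the subclasses. Interneurons with medial eminence markers had 93.4 CPM of St8sia1 in the fluconazole and 75.1 CPM in the vehicle library, and those with caudal eminence markers 15.8 and 24.5 CPM. Near-projecting neurons of layer 5/6 had 60.0 and 57.6 CPM of St8sia1, with layer 2/3 neurons at 20.3 and 19.0 CPM. St8sia3 reached 79.5 and 80.5 CPM in spiny neurons of the indirect (Drd2) pathway and 72.2 and 77.9 CPM in those of the direct (Drd1) pathway, which did not differ beyond their intervals. Caudal eminence interneurons followed at 28.8 and 18.8 CPM, and this step exceeded the intervals. St8sia5 was low in both spiny subtypes, at 7.87 and 10.1 CPM in the direct and 12.9 and 2.24 CPM in the indirect pathway.

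**Figure D2:**
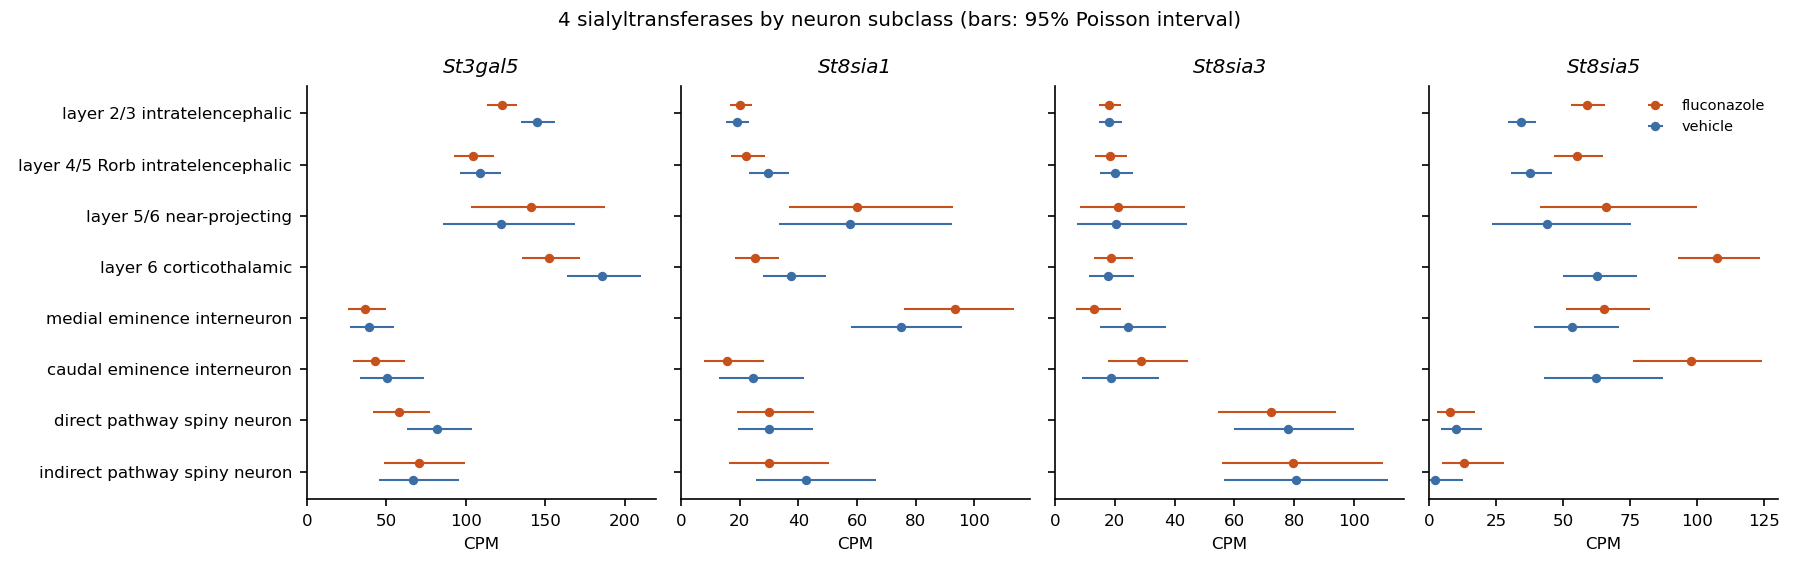
Level of 4 sialyltransferases (horizontal axis, CPM) in 8 neuron subclasses (rows), with 95% Poisson intervals, the fluconazole library above the vehicle library. St8sia1 is highest in medial eminence interneurons, St8sia3 in both spiny subtypes, and St3gal5 and St8sia5 are low in spiny neurons relative to layer 6 neurons.

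The fluconazole library was then set against the vehicle library, class by class, for members with at least 50 UMIs in the class over both libraries. A ratio of at least 0.5 on the log2 scale (1.41-fold) in either direction was counted, and the share of all genes counted by the same rule is given beside it. Of 49 member and class pairs with enough UMIs, out of 91, 3 were higher and 1 lower by that rule. In glutamatergic neurons 1 of 7 was counted, against 8.9% of all genes, in GABAergic neurons 1 of 6 (10.9% of all genes), in microglia 1 of 5 (7.25%) and in astrocytes 1 of 4 (9.13%). The other 9 classes had none: 0 of 6 in striatal spiny neurons (16.4% of all genes), 0 of 4 in neuroblasts (10.2%), 0 of 3 in oligodendrocyte precursors (18%), 0 of 3 in oligodendrocytes (7.53%), 0 of 3 in endothelial cells (7.02%), 0 of 3 in fibroblasts (22.6%), 0 of 2 in mural cells (10.6%), 0 of 2 in lymphocytes (24.2%) and 0 of 1 in border macrophages (14.7%). The counting interval lay above 0 in 6 of the 49 pairs and below 0 in 4. The median log2 ratio of the members was 0.11 in glutamatergic neurons, against -0.04 over all genes counted there, and 0.24 in GABAergic neurons, against -0.01. Over the 13 classes it ran from -0.27 in astrocytes to 0.24 in GABAergic neurons and lymphocytes, and was below 0 in astrocytes, oligodendrocyte precursors (-0.13), mural cells (-0.11), neuroblasts (-0.08), border macrophages (-0.06) and spiny neurons (-0.01).

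St8sia5 in glutamatergic neurons was the pair furthest from equality by its interval. The fluconazole library had 1499 UMIs and the vehicle library 756, a log2 ratio of 0.80 (0.67 to 0.93). Of the 15923 other genes counted in the class, 338 (2.12%) had a ratio at least as large in either direction and 124 (0.779%) one at least as high. Among the 5426 others with at least 1000 UMIs, 24 were as large and 14 as high. The same UMIs can be tabulated per barcode, which is not separate evidence. Of glutamatergic barcodes, 48.6% in the fluconazole and 70.5% in the vehicle library had no St8sia5 UMI, and 27.9% and 22.0% had 1. A further 13.1% and 5.54% had 2, and 10.4% and 1.95% had 3 or more. In microglia, as a class with little St8sia5, 0.785% and 0.475% of barcodes had a UMI at median depths of 5999 and 4594 UMIs.

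Depth differed in the same direction, with a median of 10971 UMIs per fluconazole and 7682.5 per vehicle glutamatergic barcode. After each barcode was thinned to 1500 UMIs, 10.4% of fluconazole and 5.56% of vehicle barcodes had a St8sia5 UMI, against 51.4% and 29.5% before. Within bins of depth, barcodes under 5000 UMIs had 75.5 and 46.6 CPM (log2 ratio 0.69, 0.11 to 1.27), those from 5000 to under 10000 had 70.1 and 39.1 CPM (0.84, 0.59 to 1.09), those from 10000 to under 20000 had 78.2 and 46.5 CPM (0.75, 0.56 to 0.94), and deeper ones 79.9 and 49.9 CPM (0.68, 0.38 to 0.99). The fluconazole level was higher in all 4 bins, which divide the same UMIs. Between bins it ran from 70.1 to 79.9 CPM, and the vehicle level from 39.1 to 49.9 CPM. The part of depth in the result was not tested beyond these values. Malat1, a nuclear RNA, stood at 47451 CPM in fluconazole and 41950 CPM in vehicle glutamatergic barcodes, and the median mitochondrial share was 0.214% and 0.235%. The part of nuclear content in the result was not tested.

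The difference was spread over the glutamatergic class. Of 21 sub-clusters, 14 had at least 50 St8sia5 UMIs, and the fluconazole level was higher in all 14, with ratios from 0.02 to 1.08. In 13 of them the ratio was at least 0.5 and its interval lay above 0. The remaining one, with 53.0 CPM in the fluconazole and 52.4 CPM in the vehicle library, was led by endothelial genes. The sub-clusters divide the UMIs of the same 2 libraries, so these counts are not separate evidence. The share of all genes past the threshold was not computed for sub-clusters. Sub-clusters with markers of a second class were not set aside in these counts. They held 16.0% of fluconazole and 14.6% of vehicle glutamatergic barcodes. Leaving them out was 1 of the alternatives given below, over which the class ratio ran from 0.75 to 0.98. The highest levels, 133 and 65.4 CPM, were in a sub-cluster that carried markers of more than 1 layer and had no subclass name.

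**Figure D3:**
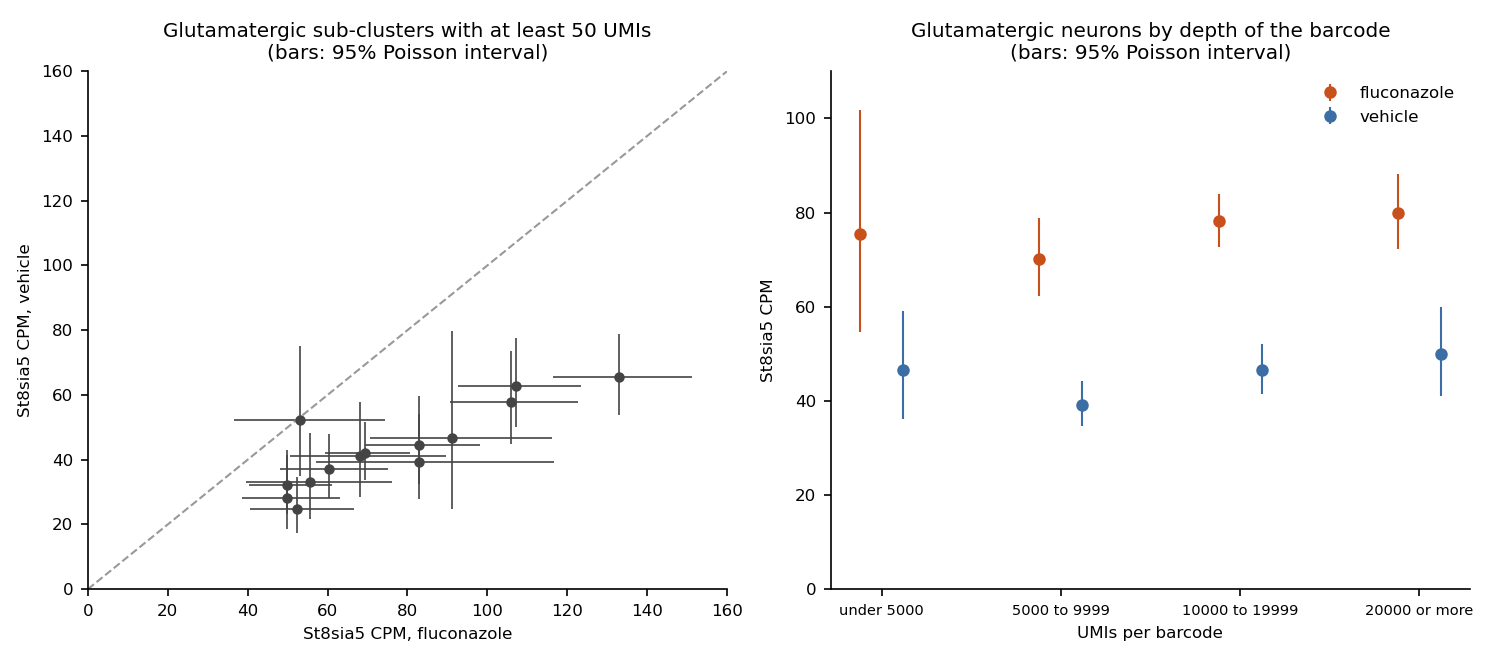
Left, St8sia5 CPM in the fluconazole (horizontal) and vehicle library (vertical) for the 14 glutamatergic sub-clusters with at least 50 UMIs, with 95% Poisson intervals and a dashed line of equality; all lie below the line, 1 of them almost on it. Right, St8sia5 CPM in glutamatergic barcodes by UMIs per barcode, where the fluconazole level (70.1 to 79.9 CPM) is above the vehicle level (39.1 to 49.9 CPM) in each of 4 bins.

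By named subclass, the St8sia5 ratio was 0.78 (0.51 to 1.06) in layer 2/3 and 0.77 in layer 6 corticothalamic neurons, and 0.55 (0.17 to 0.93) in layer 4/5 neurons. Among interneurons it was 0.66 (0.04 to 1.30) in the caudal eminence type, with 97.8 CPM in the fluconazole and 62.1 CPM in the vehicle library, and 0.30 (-0.26 to 0.87) in the medial eminence type, with 65.4 and 53.2 CPM. GABAergic neurons as a whole had a ratio of 0.48 (0.17 to 0.79), just under the counting threshold. Whether the ratio differs between these groups was not tested. In striatal spiny neurons it was -0.01, but 19.1% of fluconazole and 27.2% of vehicle spiny barcodes lay in sub-clusters with markers of a second class. Without those the levels were 9.78 and 7.24 CPM, on 21 UMIs.

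Ugcg in GABAergic neurons was the next pair counted as higher, with 32.0 CPM in the fluconazole library (25.7 to 39.2, 91 UMIs) and 18.9 CPM in the vehicle library (14.2 to 24.6, 54 UMIs). The log2 ratio was 0.76 (0.26 to 1.27). Both GABAergic clusters had the higher level with fluconazole, at 36.6 and 16.2 CPM in 1 and 30.1 and 19.7 CPM in the other. In glutamatergic neurons the Ugcg ratio was 0.11, and in the remaining classes the 2 libraries lay close together, as in endothelial cells with 17.2 and 17.1 CPM.

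St8sia1 in microglia was the last pair counted as higher, on few counts: 56 fluconazole and 34 vehicle UMIs, or 3.74 CPM (2.82 to 4.85) and 2.24 CPM (1.55 to 3.12), a ratio of 0.74 (0.10 to 1.40). A UMI was found in 2.11% of fluconazole and 1.04% of vehicle microglial barcodes, at the depths given above, against 0.438% and 0.519% of mature oligodendrocytes, at median depths of 8914 and 7320 UMIs. Summed neuronal markers stood in microglia at 1.42% and 1.78% of their glutamatergic level, and their part in the result was not tested. In GABAergic neurons, where St8sia1 is highest, the ratio was 0.03.

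St3gal5 was the one enzyme counted as lower, in astrocytes, with 32 UMIs (13.9 CPM) in the fluconazole and 46 UMIs (22.4 CPM) in the vehicle library. The ratio was -0.69 with an interval of -1.39 to -0.01, and -0.27 when called doublets were kept. Smaller ratios with intervals on 1 side of 0 were found in 4 other classes. St3gal5 had -0.40 (-0.73 to -0.06) in GABAergic neurons, -0.33 (-0.65 to -0.01) in oligodendrocytes, -0.12 (-0.20 to -0.04) in glutamatergic neurons and 0.11 (0.02 to 0.20) in microglia. Summed microglial markers in GABAergic neurons stood at 2.66% of their microglial level in the fluconazole and 4.68% in the vehicle library. Without the GABAergic sub-clusters that carry markers of a second class the levels were 38.3 and 39.5 CPM, a ratio of -0.04. The largest of those sub-clusters, with 66 barcodes, carried glutamatergic markers, and 1 with 18 barcodes carried microglial markers. The part of each in the result was not tested. St3gal2 had 0.45 (0.01 to 0.90) in GABAergic neurons, and -0.14 there after thinning, which left 40 UMIs. B4galnt1 had at least 50 UMIs only in glutamatergic neurons, microglia and lymphocytes. St8sia3 had as many only in glutamatergic, GABAergic and spiny neurons and neuroblasts. Neither gene was counted in either direction in those classes, with 0.21 for B4galnt1 in glutamatergic neurons, where the levels were 10.4 and 8.98 CPM. With a minimum of 10 UMIs, each was past the threshold in some other classes.

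**Figure D4:**
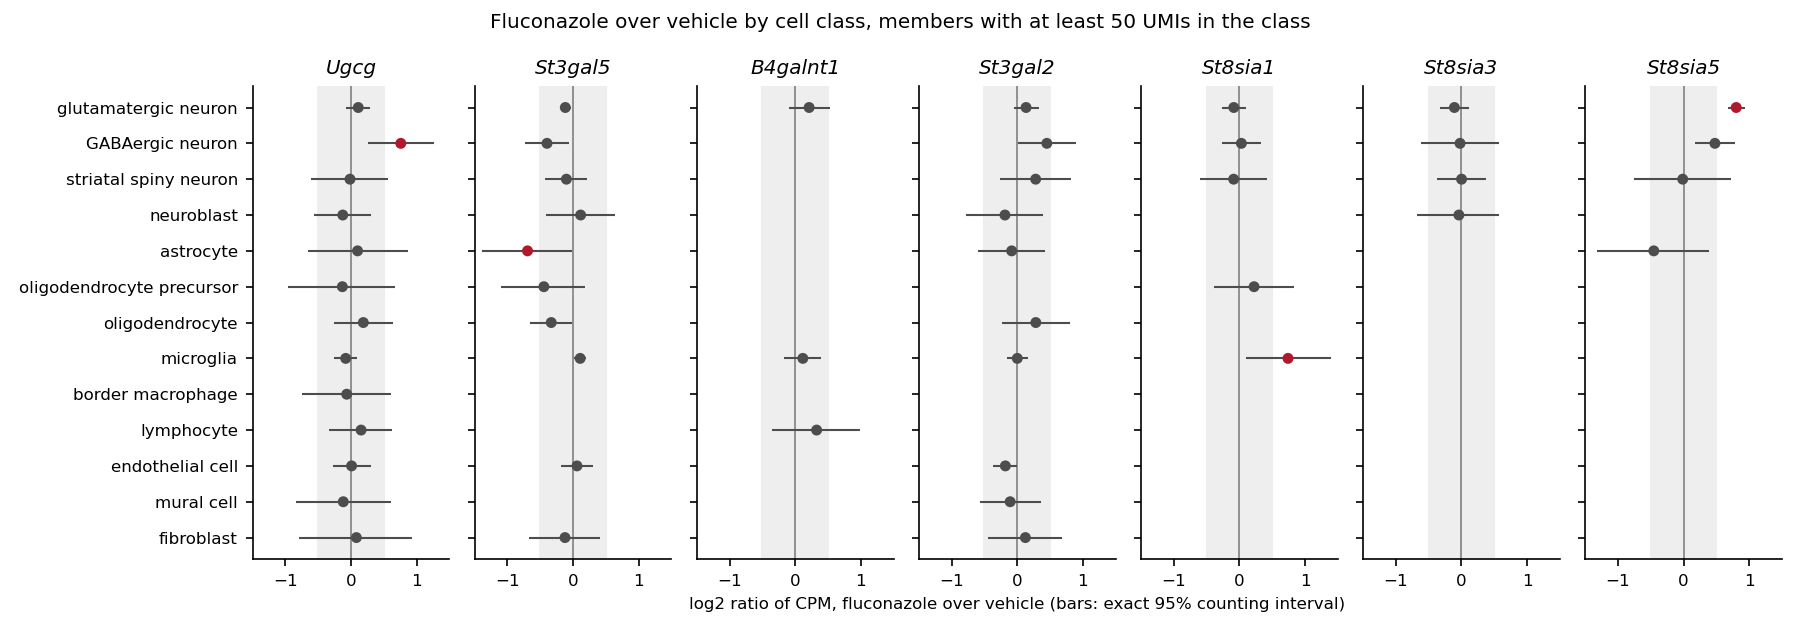
Log2 ratio of CPM, fluconazole over vehicle (horizontal axis), for each enzyme in the cell classes (rows) where it has at least 50 UMIs, with exact 95% counting intervals; the grey band spans -0.5 to 0.5 and red points are at or beyond it. The red points are St8sia5 in glutamatergic neurons (0.80), Ugcg in GABAergic neurons (0.76), St8sia1 in microglia (0.74) and St3gal5 in astrocytes (-0.69).

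Over the 8 neuron subclasses, 30 of 56 pairs had at least 50 UMIs, of which 6 were higher and 2 lower by the same rule. In layer 2/3 neurons 2 of 7 were higher (10.9% of all genes were counted in either direction): St8sia5 and B4galnt1. B4galnt1 was at 10.8 CPM in the fluconazole and 7.35 CPM in the vehicle library (0.55, -0.07 to 1.19). Layer 4/5 neurons had 2 of 6 higher (12.5% of all genes), St8sia5 and Ugcg, with Ugcg at 34.2 and 24.2 CPM (0.50, 0.02 to 0.99). Layer 6 corticothalamic neurons had 1 of 6 higher, St8sia5, and 1 lower, St8sia1 at 25.2 and 37.6 CPM (-0.58, -1.19 to 0.02), against 15% of all genes. In caudal eminence interneurons 1 of 2 was higher, St8sia5 (16.1% of all genes), and in direct pathway spiny neurons 1 of 2 was lower, St3gal5 at 57.7 and 81.7 CPM (-0.50), against 19.2% of all genes. Direct pathway neurons numbered 98 in the fluconazole and 157 in the vehicle library. Their make-up differed: 1 sub-cluster of 99 barcodes had 19.2% from the fluconazole library and 1 of 82 had 56.1%. The part of this in the ratio was not tested. None was counted in medial eminence interneurons (0 of 4, 13.1% of all genes), near-projecting neurons (0 of 1, 15.5%) or indirect pathway spiny neurons (0 of 2, 17.3%). St8sia5 was counted in 4 of the subclasses, and no other member in more than 1.

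Other genes around the route were read from lists. In glutamatergic neurons, none of 8 other synthesis enzymes with at least 50 UMIs, of 9 listed, was counted: 6 were higher and 2 lower in CPM. Among them B4galt5 and B4galt6, which make lactosylceramide, had 29.1 and 36.6 CPM in the fluconazole and 26.9 and 36.0 CPM in the vehicle library, and St3gal3, another sialyltransferase, 85.2 and 76.0 CPM (0.16, 0.06 to 0.27). Of 11 breakdown genes 3 were higher, 8 lower and none counted, and of 6 genes that supply sialic acid 2 were higher, 4 lower and none counted. Of 5 genes of other glycosphingolipid branches, 1 was counted as lower, Ugt8a, the enzyme of galactosylceramide synthesis in myelin, at 13.3 and 21.7 CPM (-0.71). Summed oligodendrocyte markers in glutamatergic neurons stood at 230 and 301 CPM, or 0.791% and 0.901% of their oligodendrocyte level, and their part in the result was not tested. Of 3 ganglioside-binding lectins with at least 50 UMIs, 3 were lower in CPM and 1 of them was counted. St8sia5 was thus the 1 gene of the route counted as higher in this class.

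In other classes single genes of these lists were counted. GABAergic neurons had a lower level of Siglech, a microglial lectin, at 14.7 CPM in the fluconazole and 31.1 CPM in the vehicle library (-1.08), beside the lower share of microglial markers given above. The part of microglial transcripts in the Siglech values here and below was not tested. Counted as higher in GABAergic neurons were St3gal1, a sialyltransferase, at 20.4 and 14.0 CPM (0.54), St6galnac2, another, at 12.6 and 8.04 CPM (0.65), and Gal3st1, which makes sulfatide, at 10.5 and 7.34 CPM (0.52). By list, 1 of 8 other synthesis enzymes, 1 of 6 other sialyltransferases and 1 of 4 genes of other branches were higher there. Lower were 1 of 3 ganglioside-binding lectins and 1 of 9 breakdown genes. Neuroblasts had 3 of 6 other synthesis enzymes lower, where 6.39% of all genes were counted as lower: St3gal1 at 7.34 and 19.5 CPM (-1.41), B4galt6 (-0.59) and B4galt5 (-0.57). In oligodendrocytes St3gal3 was higher at 173 and 115 CPM (0.59, 0.42 to 0.75), as was Siglech at 11.6 and 6.31 CPM (0.88), and Nans, a sialic acid synthase, was lower at 6.48 and 11.96 CPM (-0.88). These were 1 of 3 other synthesis enzymes, 1 of 2 lectins and 1 of 5 genes of sialic acid supply. Of 11 breakdown genes, 1 was also counted as higher. Summed microglial markers stood in oligodendrocytes at 1.60% and 1.56% of their microglial level. In astrocytes Cmas, which activates sialic acid, was higher at 29.9 and 16.6 CPM (0.85), as was Siglech at 35.5 and 24.4 CPM (0.54), where summed microglial markers stood at 4.19% and 4.88% of their microglial level, and St8sia4, a polysialyltransferase, was lower at 10.4 and 16.1 CPM (-0.63). These were 1 of 4 genes of sialic acid supply, 1 of 3 lectins and 1 of 4 other sialyltransferases. None of 7 other synthesis enzymes or 10 breakdown genes was counted there. Of the members, 4 of 7 had at least 50 UMIs in neuroblasts and 3 of 7 in oligodendrocytes, and none of these was counted.

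The genes whose levels varied most like each member were taken over 26 points, 13 classes in 2 libraries, as Pearson correlations of log2(CPM + 1). The points share 2 libraries and the class structure, so the values are descriptive. Nearest to Ugcg were Stk4 (0.90), Cd79b (0.90) and Gpr132 (0.89), and nearest to St3gal5 Csmd3 (0.80), Nos1ap (0.79) and Sdccag8 (0.79). B4galnt1 was nearest to Ero1b (0.86), Ugcg itself (0.86) and Ipcef1 (0.84), and St3gal2 to Klhdc8b, Fam118b and Thnsl2 (0.83 each). St8sia1 had Ppp1r14c (0.91), Traf3ip2 (0.91) and Runx2 (0.90), St8sia3 had Plppr1 (0.93), Mgat5b (0.92) and Atcay (0.92), and St8sia5 had Zranb2 (0.96), Ubr3 (0.95) and Nek1 (0.95). Ugcg and B4galnt1 were thus the 1 pair of members in which a member stood among the 3 nearest genes of another, while Ugcg and St8sia5 had a correlation of -0.45.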

How the data were processed

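The authors deposited 1 matrix of unnormalized UMI counts per library, made with Cell Ranger 8.0.1 per the file headers. Per the submitters' processing notes, Cell Ranger 9.0.0, R 4.0.3, Seurat 4.0.0 and mm10 were used. The counting of introns and strand is not given in the sources used here.

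Kept barcodes had 500 or more genes and no more than 5% mitochondrial UMIs, and Scrublet doublets (517 fluconazole, 617 vehicle) were left out. Both libraries were clustered together in scanpy 1.11.5 (2000 variable genes per library, 30 components, 15 neighbours, Leiden resolution 1), without the ganglioside-related genes. A cluster took a class name when at least 3 markers were at least 2-fold higher there and found in at least 10% of barcodes. It was left unnamed if it also carried markers of another class. The same held if it had few UMIs and no own marker among its leading genes. These naming rules were written with the clusters at hand, and 32 of 37 clusters were named. Neuron classes were clustered again for subclasses with at least 40 barcodes per library, and a subclass name needed a lower fold and fewer raised markers.

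UMIs were summed per class and library. CPM have exact Poisson intervals, shares Clopper-Pearson intervals and ratios exact conditional binomial intervals, all at 95%. They treat every UMI as independent. Ratio code was checked on simulated data. The members and lists were chosen with earlier results of these data known. Named genes are all members, the 3 genes most like each and, of other lists, at most 4 per class past the fold. Alternatives covered doublets, filters, thinning, cluster weighting, resolution, scaling and single barcodes.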

Additional observations from a re-analysis of the deposited data

Results flagged for a closer look

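St3gal5 stood in opposite directions in different classes with counting intervals on 1 side of 0. The log2 ratio of fluconazole over vehicle was 0.11 (0.02 to 0.20) in microglia, against -0.12 in glutamatergic neurons, -0.33 in oligodendrocytes, -0.40 in GABAergic neurons and -0.69 in astrocytes. The difference between the classes was not tested. The GABAergic value was -0.04 without sub-clusters that carry markers of a second class.

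St8sia5 was also found outside the named classes, in a cluster that had too few class markers to be named. It had 247 fluconazole and 164 vehicle UMIs, or 156 and 89.3 CPM, a ratio of 0.81 (0.52 to 1.10).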

How the results depend on the processing

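No paired analysis was possible because each treatment has 1 library, and no library could be left out in turn. The count of member and class pairs at least 1.41-fold apart was 4 of 49. It was 17 of 80 with a minimum of 10 UMIs in place of 50, where more pairs of few counts enter, and 4 to 6 under the other alternatives. The pairs were not always the same: after thinning, 4 of 23 were counted, and 1 of these, St8sia5 in glutamatergic neurons, was among the main 4.

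The ratio of St8sia5 in glutamatergic neurons ran from 0.75 to 0.98 over 10 alternatives, with 0.98 after thinning, which left 289 UMIs. Ugcg in GABAergic neurons ran from 0.69 to 1.04 and St8sia1 in microglia from 0.30 (thinned) to 1.08. St3gal5 in astrocytes ran from -0.27 with doublets kept to -1.56 among barcodes of 5000 to under 20000 UMIs, where 20 UMIs remained. That depth range and the removal of mixed sub-clusters were added after seeing the data. The 4 called values kept their sign under every alternative. Of 450 values for the 45 pairs not called, 428 moved by less than their counting interval and 22 by more. The class with the highest level was kept for all 7 members in 5 alternatives. With clusters of a class weighted equally, 6 of 7 kept it, and St8sia1 was then highest in oligodendrocyte precursors.

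Counting depth limits B4galnt1 and the alpha-2,8 enzymes outside neurons most, since levels there rest on few UMIs, and a difference within an interval was not detectable at this depth.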

Other observations

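Border macrophages had 7.74 CPM of Lgals3, a ganglioside-binding lectin, in the fluconazole library and 82.3 CPM in the vehicle library, a log2 ratio of -3.41. The class held 129 fluconazole and 158 vehicle barcodes with 774904 and 741200 UMIs in all, so the fluconazole value rests on few Lgals3 UMIs. Of 5 listed lectins with at least 50 UMIs there, Lgals3 was counted as lower and 1 other as higher, against 14.7% of all genes counted in either direction. Over all kept barcodes St8sia5 had 30.7 CPM in the fluconazole and 18.3 CPM in the vehicle library (0.75, 0.65 to 0.85), and the other 6 members lay between -0.17 and 0.11.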
